A study of Sus scrofa with 28 samples.

Results

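The genes described here are AEBP1, SFRP2 and THY1, which mark or act in connective tissue progenitors, and FBN2 and MFAP5, which encode proteins of extracellular microfibrils. They were chosen by gene symbol, and each had 1 probe set, so the 5 genes are 5 of 5226 probe sets and of 2275 named genes. The study hybridized RNA of the longissimus dorsi (loin) muscle of 28 male piglets, 1 porcine genome array each, taken at weaning at 28 days of age from piglets that were still fed by their mothers. Of these, 14 were crossbred piglets from Duroc boars and Iberian sows (DU×IB) and 14 were purebred Iberian piglets (IB), so both genetic types had Iberian mothers. Genetic type here therefore means the breed of the sire, and it cannot be told apart from sow and litter, since separate sows bore each type. The labels do not name the litter of a piglet, and the study describes far fewer crossbred than purebred litters. Littermates therefore entered all tests as independent piglets, so standard errors, confidence intervals and p-values do not allow for shared litters. Values are levels on the log2 scale, where a difference of 1 is a doubling of the signal, and the level of one gene cannot be set against that of another because their probes differ.

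Skeletal muscle holds interstitial fibroblasts and fibro-adipogenic progenitors, which lay down the matrix around the fibres and can become fibroblasts or fat cells. Microfibrils are thin filaments of fibrillins and associated proteins that serve as a scaffold for elastin and hold growth factors of the TGF-β and BMP families in the matrix. Wnt proteins restrain the turn of progenitors into fat cells, and secreted frizzled-related proteins bind Wnts outside the cell. In whole muscle, a lower level can come from fewer cells of a type or from less RNA per cell, and these cannot be told apart.

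AEBP1 encodes a secreted collagen-binding protein of the carboxypeptidase family that was first described in mouse preadipocytes as a repressor of transcription. SFRP2 encodes a secreted Wnt-binding protein, and THY1 encodes the surface glycoprotein CD90 of mesenchymal stromal cells. FBN2 encodes fibrillin-2, the fibrillin of developing tissue. MFAP5 encodes a small glycoprotein that binds fibrillins. The study's own list of differentially expressed genes names AEBP1, SFRP2 and FBN2, so for these 3 genes a difference in these arrays is not independent evidence of its direction, and AEBP1 is also among its 310 probe sets of regulatory factors. The study also measured AEBP1 and FBN2 by quantitative PCR in RNA of the same piglets and reported both as higher in DU×IB. THY1 and MFAP5 are not in that list, but they too were chosen with earlier results of these data known, so their differences are not independent evidence either.

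The arrays were hybridized in a pair of series that the labels do not name. The levels of 10 spike-in probe sets, for the bacterial transcripts bioB and bioC, part them into a larger division of 16 arrays with 8 piglets of each genetic type, at a mean spike-in level of 8.93 to 9.68, and a smaller division of 12 arrays with 6 of each, at 6.19 to 7.01. The first principal component held 47.3% of the variance over all probe sets and followed this division (r2 = 0.796), not genetic type (r2 = 6.72e-05). The division was therefore used as a block in a further fit and for values within each division. Array medians ran from 6.24 to 7.05 in DU×IB and from 6.01 to 7.02 in IB. By division they did not overlap, at 6.01 to 6.71 in the larger and 6.87 to 7.05 in the smaller.

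The first comparison asked whether the genes differ between genetic types. All 5 had a higher mean level in DU×IB than in IB, by 1.37-fold to 1.94-fold. FBN2 alone passed the threshold of an adjusted p under 0.10 (limma, Benjamini-Hochberg over all 5226 probe sets), that is 1 of 5 genes, where 0.995% of all probe sets passed, 0.765% with the higher and 0.23% with the lower level in DU×IB. With the division as a block, FBN2 and AEBP1 passed, 2 of 5, where 2.77% of all probe sets passed, 2.07% with the higher and 0.708% with the lower level in DU×IB. The median difference over all probe sets was 0.02 on the log2 scale, and 52.5% of them had a positive difference.

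**Figure D1:**
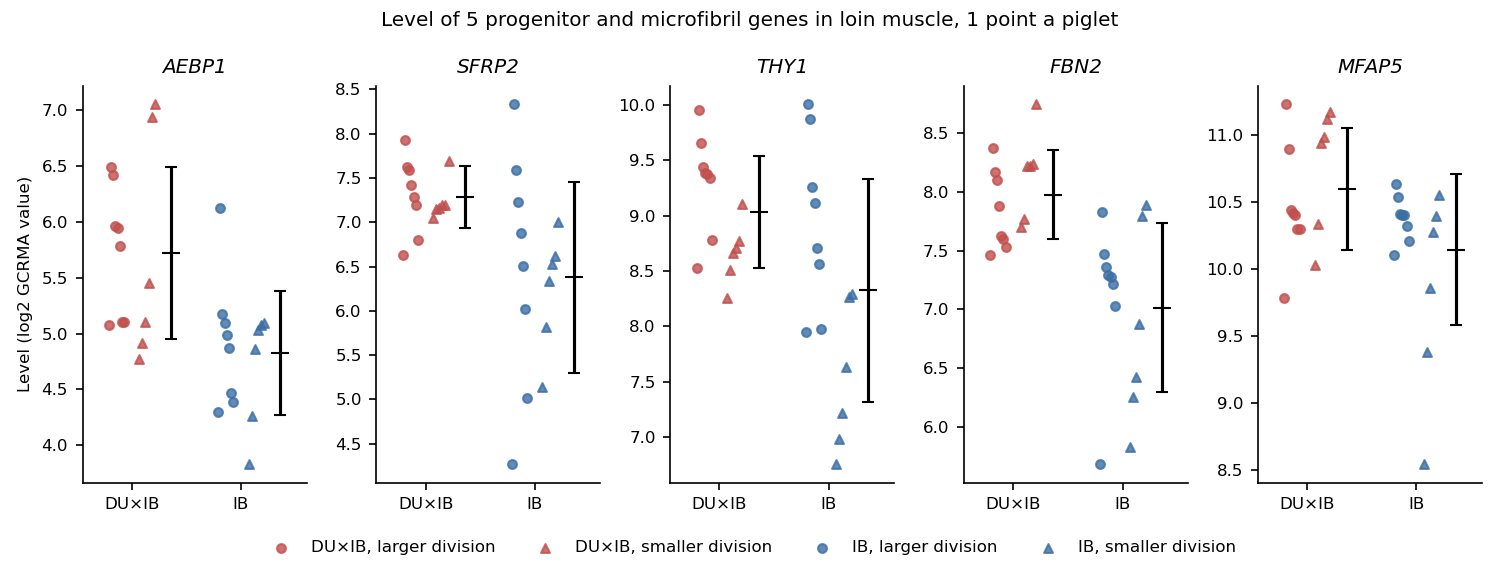
Level of each gene (log2 GCRMA value, vertical axis, a separate scale for each gene) in 14 DU×IB piglets (red, left) and 14 IB piglets (blue, right). Circles are arrays of the larger division, triangles those of the smaller division, and the black marks are the mean ± SD of each genetic type. FBN2 shows the clearest parting, with 7 DU×IB piglets above every IB piglet, and the IB piglets reach farther down than the DU×IB piglets for all 5 genes.

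FBN2 had a lowest, median and highest level of 7.46, 7.99 and 8.75 in DU×IB, against 5.68, 7.24 and 7.89 in IB. Of the 14 DU×IB piglets, 7 lay above every IB piglet, and 10 of the 14 IB piglets lay below every DU×IB piglet, so the groups overlapped over a narrow range only. The mean level was 7.97 ± 0.38 in DU×IB and 7.01 ± 0.72 in IB (SD, n = 14 each), a difference of 0.96 ± 0.22 on the log2 scale (SE, 95% confidence interval 0.51 to 1.41) or 1.94-fold (limma, adjusted p = 0.0298). With the division as a block the adjusted p from limma was 0.0144. The gene held its call when any 1 piglet was left out, at adjusted p-values from limma of 0.0149 to 0.061. Of its variance, 43.0% went with genetic type, a larger share than in 99.6% of all probe sets.

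MFAP5, the fibrillin-binding partner, had a lowest, median and highest level of 9.78, 10.43 and 11.23 in DU×IB, against 8.54, 10.35 and 10.63 in IB. The medians lay close together, while 6 DU×IB piglets lay above every IB piglet and 2 IB piglets below every DU×IB piglet. The mean level was 10.59 ± 0.45 in DU×IB and 10.14 ± 0.56 in IB (SD, n = 14 each), a difference of 0.45 ± 0.20 (SE, log2 scale, 95% confidence interval 0.04 to 0.87) that did not pass the threshold (limma, adjusted p = 0.514, and 0.280 with the block). The 6 high DU×IB piglets came from both divisions, but 4 of the 6 DU×IB piglets of the smaller division were among them and 2 of the 8 of the larger one.

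AEBP1 had a lowest, median and highest level of 4.78, 5.62 and 7.06 in DU×IB, against 3.83, 4.93 and 6.12 in IB. The high values belonged to DU×IB, with 4 piglets above every IB piglet, and the low values to IB, with 5 piglets below every DU×IB piglet, but 7 piglets of both genetic types shared levels of 5.08 to 5.10 in the middle. Of these, DU×IB piglets 1 and 2 had an identical value. The mean over all piglets was 5.27, below the median of every array (6.01 to 7.05), so the signal of this probe set was on the low side. The mean level was 5.72 ± 0.77 in DU×IB and 4.83 ± 0.55 in IB (SD, n = 14 each). The difference of 0.90 ± 0.25 (SE, log2 scale, 95% confidence interval 0.39 to 1.41, 1.86-fold) missed the threshold in the fit without covariates (limma, adjusted p = 0.106) and passed it with the division as a block (limma, adjusted p = 0.0562). Leaving out 1 piglet made it in 6 of 28 cases without the block, with the lowest adjusted p from limma (0.0394) without IB piglet 4, the highest IB value, and lost it in 1 of 28 cases with the block, without DU×IB piglet 14 (adjusted p = 0.102).

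SFRP2 had a lowest, median and highest level of 6.63, 7.20 and 7.93 in DU×IB, against 4.26, 6.51 and 8.34 in IB. All 14 DU×IB piglets lay above the IB median and 9 IB piglets lay below every DU×IB piglet, yet the highest value of all 28 belonged to IB piglet 2. The mean level was 7.28 ± 0.35 in DU×IB and 6.38 ± 1.08 in IB (SD, n = 14 each), a difference of 0.90 ± 0.29 (SE, log2 scale, 95% confidence interval 0.31 to 1.49, 1.87-fold) that did not pass (limma, adjusted p = 0.221, and 0.115 with the block). Leaving out IB piglet 2, the highest value, gave 1.05 and was the only 1 of 28 such cases to pass without the block (limma, adjusted p = 0.0555). Over all 28 cases the difference ran from 0.74, without IB piglet 3, to 1.05, and the adjusted p from limma reached 0.349 without IB piglet 12.

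THY1 had a lowest, median and highest level of 8.25, 8.94 and 9.96 in DU×IB, against 6.75, 8.28 and 10.01 in IB. The upper ends of the groups met, again with IB piglet 2 highest of all, while 6 IB piglets lay below every DU×IB piglet. The mean level was 9.03 ± 0.50 in DU×IB and 8.33 ± 1.01 in IB (SD, n = 14 each), a difference of 0.71 ± 0.29 (SE, log2 scale, 95% confidence interval 0.12 to 1.29, 1.63-fold) that did not pass (limma, adjusted p = 0.427, and 0.110 with the block).

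The division of the arrays touched these genes unequally. It held 36.1% of the variance of THY1, whose level was on average 1.03 lower on the log2 scale in the smaller division. For the other 4 genes it held between 4.18e-04% (FBN2) and 1.30% (MFAP5), against a median of 40.3% over all probe sets, and only 6.87% of all probe sets had a smaller share than MFAP5. A permutation of genetic type within the divisions, two-sided and unadjusted, gave p = 9e-05 for FBN2, 0.00141 for AEBP1, 0.00497 for SFRP2, 0.00596 for THY1 and 0.0253 for MFAP5 (100000 resamples).

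Within the divisions the differences kept their sign. They were close in size for AEBP1 (1.01 in the smaller and 0.81 in the larger division, log2 scale) and SFRP2 (1.00 and 0.83), and farther apart for the other 3 genes. In the smaller division (6 piglets of each type) they ran from 0.93 for MFAP5 to 1.31 for FBN2 on the log2 scale, and SFRP2, THY1 and FBN2 passed (limma, adjusted p = 0.0918, 0.0762 and 0.0902), where 4.38% of all probe sets passed and 2.39% did so with the higher level in DU×IB. In the larger division (8 of each) they ran from 0.09 for MFAP5 to 0.83 for SFRP2, and none of the 5 passed (limma, lowest adjusted p = 0.757), where 0.172% of all probe sets passed and 0.153% did so with the higher level in DU×IB. AEBP1 and FBN2 had unadjusted p-values of 0.0101 and 0.0123 there.

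MFAP5 changed most between the divisions. Its mean level was 10.76 ± 0.47 in DU×IB and 9.83 ± 0.76 in IB of the smaller division (SD, n = 6 each). In the larger division it was 10.47 ± 0.43 in DU×IB and 10.37 ± 0.17 in IB (SD, n = 8 each). The difference of the differences was 0.84 for MFAP5, 0.77 for THY1, 0.61 for FBN2, 0.20 for AEBP1 and 0.17 for SFRP2 on the log2 scale. None of these passed over all probe sets (limma interaction term, adjusted p = 0.742 for MFAP5, unadjusted p = 0.0287), and 0 of 5226 probe sets (0%) did, with 333 at an unadjusted p under 0.05.

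**Figure D2:**
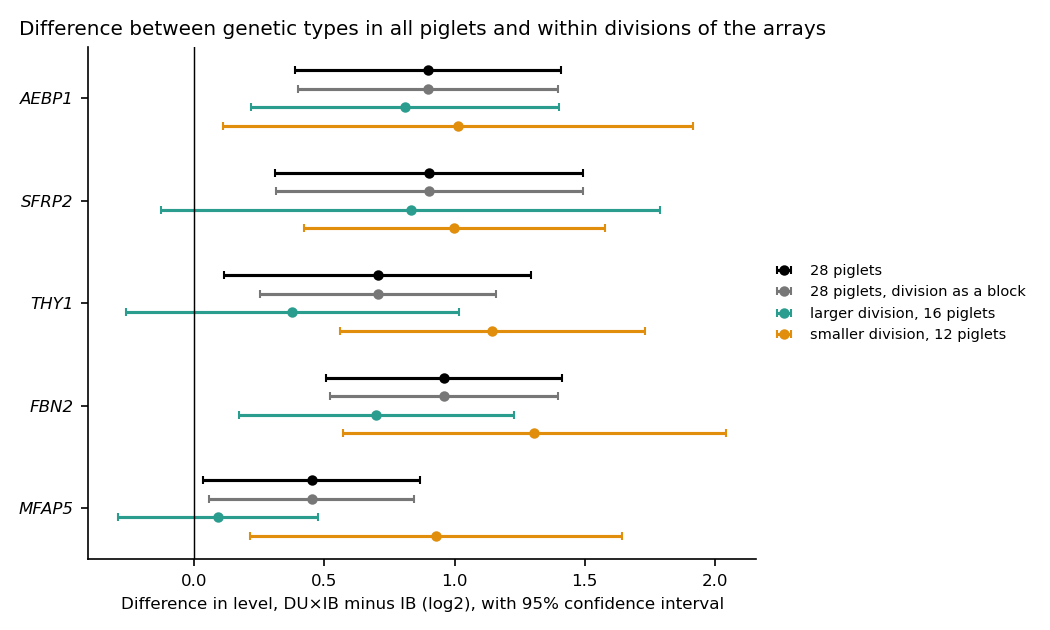
Difference in level between DU×IB and IB (log2, horizontal axis) for each gene, with its 95% confidence interval from limma, in all 28 piglets without and with the division as a block, in the larger division (8 piglets of each type) and in the smaller division (6 of each). All points lie to the right of 0, and the difference of MFAP5 is 0.09 in the larger and 0.93 in the smaller division.

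Spread between piglets was also set side by side. The SD of SFRP2 in DU×IB was 0.325 times that in IB, and only 0.708% of all probe sets had a lower ratio. The ratio was 0.498 for THY1, 0.527 for FBN2 and 0.808 for MFAP5. AEBP1 went the other way with a ratio of 1.38, above 96.6% of all probe sets. A larger spread in IB was common in the table, with 80.1% of probe sets below a ratio of 1 and a median ratio of 0.798, so of the 5 genes SFRP2 and AEBP1 lay farthest from the bulk at opposite ends. These ratios were not tested, and since the study describes fewer crossbred litters, genetic type and the sharing of litters cannot be told apart in them. In a fit that weights arrays by how closely they follow it, IB piglets 3 and 9 had the lowest weights (0.230 and 0.447). DU×IB piglet 3 (0.464) and IB piglet 2 (0.520) came next. IB piglets 3 and 2 held the lowest and the highest SFRP2 level, and the part of array quality in the ratios was not tested.

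The second comparison followed the genes piglet by piglet. All 5 levels lay above the median of the 28 piglets in 6 DU×IB piglets (2, 4, 7, 8, 10 and 12) and in 0 IB piglets, and none of the 5 did in 0 DU×IB piglets and in 5 IB piglets (3, 9, 11, 12 and 13). DU×IB piglet 7 ranked between 1 and 4 of 28 for every gene, and IB piglet 12 between 26 and 28. Single piglets broke the pattern. IB piglet 2 ranked 1 for SFRP2 and for THY1 but 20 for FBN2 and 23 for MFAP5, and DU×IB piglet 3 ranked 2 for THY1 but 26 for MFAP5.

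**Figure D3:**
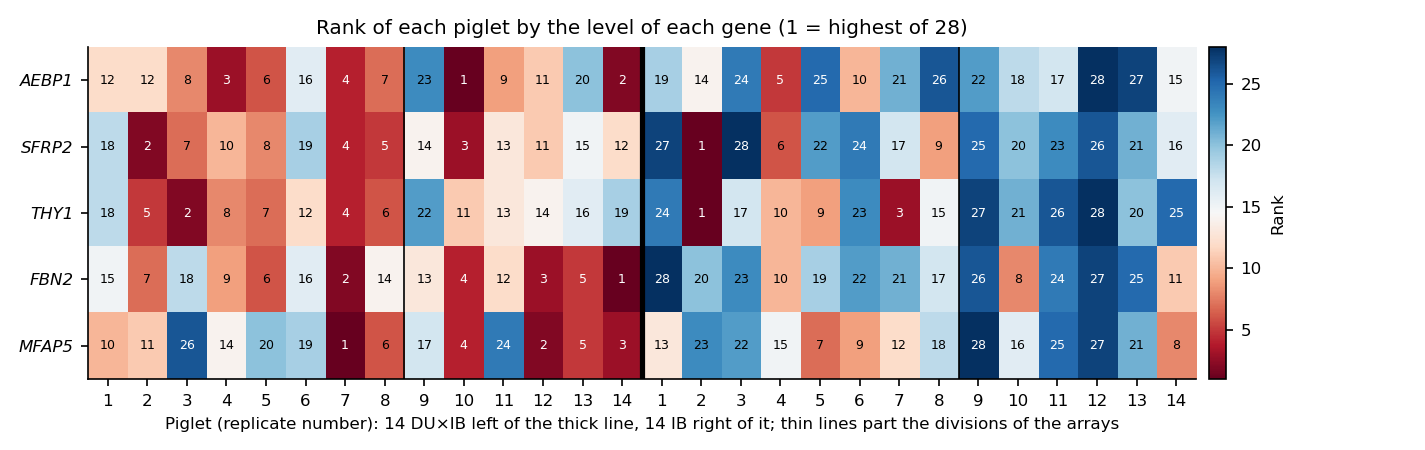
Rank of each of the 28 piglets (columns, by replicate number) by the level of each gene (rows), where 1 is the highest level and red marks high ranks. DU×IB piglets stand left of the thick line and IB piglets right of it, and the thin lines part the larger division (left) from the smaller one. IB piglet 2 is highest for SFRP2 and THY1 and 20 and 23 for FBN2 and MFAP5.

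To ask whether the genes vary together apart from genetic type, levels were centred within genetic type and division and correlated over the 28 piglets. All 10 pairs had a positive Pearson r, between 0.23 and 0.69, and 6 of the 10 passed an adjusted p under 0.10 (two-sided permutation test within genetic type and division, Benjamini-Hochberg over the 10 pairs). The share of pairs that would pass among the other probe sets was not counted, so the place of each r among all probe sets is given instead. SFRP2 and THY1 varied together most closely, with r = 0.69 (p = 0.0014, adjusted p = 0.013) and Spearman rho = 0.79 (p = 3e-05, adjusted p = 3e-04), and r was 0.71 without the 2 piglets farthest from the SFRP2 median. That r was higher than the r of SFRP2 with 99.3% of the other probe sets.

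FBN2 stood in 4 of the 6 pairs that passed. Its r was 0.59 with SFRP2 (permutation p = 0.00259, adjusted p = 0.013, rho = 0.66, rho p = 2.1e-04), 0.55 with MFAP5 (permutation p = 0.00703, adjusted p = 0.0234, rho = 0.51, rho p = 0.0142), 0.48 with THY1 (permutation p = 0.0295, adjusted p = 0.0591, rho = 0.48, rho p = 0.0187) and 0.42 with AEBP1 (permutation p = 0.0178, adjusted p = 0.0445, rho = 0.45, rho p = 0.0172). The remaining pair was AEBP1 and SFRP2, with r = 0.33 (permutation p = 0.0487, adjusted p = 0.0812, rho = 0.38, rho p = 0.032). Among the other probe sets, 97.6% had a lower r with FBN2 than SFRP2 did, 96.5% a lower one than MFAP5, 93.5% a lower one than THY1 and 90.2% a lower one than AEBP1. Seen from AEBP1, 98.3% had a lower r with it than FBN2 did. For the pair of AEBP1 and SFRP2, 95.8% of the other probe sets had a lower r with AEBP1 and 82.1% a lower one with SFRP2.

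Without the 2 piglets farthest from the median of the first gene of a pair, SFRP2 with FBN2 (r = 0.54) and FBN2 with MFAP5 (r = 0.66) still passed. THY1 with FBN2 (r = 0.36), AEBP1 with FBN2 (r = 0.40) and AEBP1 with SFRP2 (r = 0.37) did not, with adjusted permutation p-values of 0.238, 0.159 and 0.214. Of these, r was smaller without the piglets for THY1 with FBN2 and changed by little for the AEBP1 pairs. IB piglet 12, low for every gene, had the largest part in the count, which fell to 3 of 10 without it and reached 7 without IB piglet 2.

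The 4 pairs that did not pass were MFAP5 with AEBP1 (r = 0.26), with THY1 (r = 0.26) and with SFRP2 (r = 0.23), and AEBP1 with THY1 (r = 0.25), at adjusted permutation p-values of 0.164 to 0.203. Between 71.3% and 91.6% of the other probe sets had a lower r with a gene of these pairs than its partner did. For 3 of the 4 MFAP5 pairs r was farther apart between the divisions than for any other pair. In the smaller division r of MFAP5 was 0.66 with SFRP2, 0.64 with THY1 and 0.74 with FBN2, while in the larger one it was 0.04, −0.11 and 0.25. With AEBP1 it was 0.27 in the smaller and 0.24 in the larger division. Differences in r between the divisions were not tested. SFRP2 and THY1 had r = 0.69 in the larger and 0.75 in the smaller division. By Pearson r, 0 of 10 pairs passed in the larger division (lowest adjusted permutation p = 0.156) and 7 of 10 passed in the smaller one (adjusted permutation p = 0.0606 to 0.0885). By Spearman rho, SFRP2 with THY1 (0.74) and SFRP2 with FBN2 (0.68) passed in the larger division (adjusted permutation p = 0.0219 each).

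The correlations were compared between the genetic types as well. The largest difference in r was 0.36 for AEBP1 and THY1, with r = 0.48 in DU×IB and 0.12 in IB, and no pair passed (permutation test, lowest adjusted p = 0.909). SFRP2 and THY1 had r = 0.75 in DU×IB and 0.69 in IB.

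**Figure D4:**
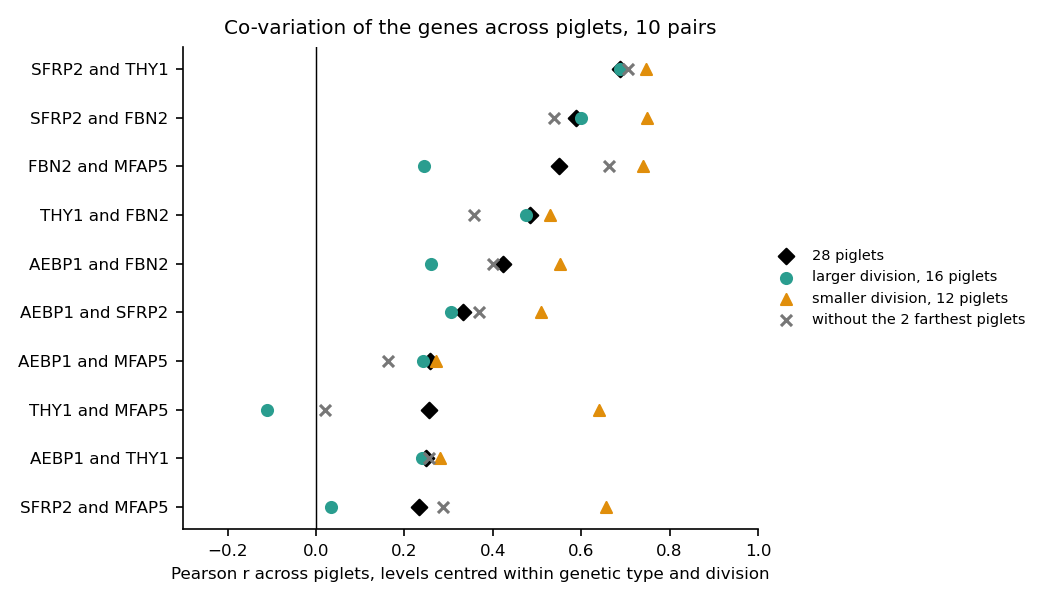
Pearson r across piglets for the 10 pairs of genes (rows), with levels centred within genetic type and division, in all 28 piglets (black), in the larger (16 piglets, circles) and smaller (12 piglets, triangles) division and without the 2 piglets farthest from the median of the first gene (crosses). SFRP2 and THY1 stand at 0.69 to 0.75 in every setting drawn, and the pairs of MFAP5 with THY1, SFRP2 and FBN2 lie farthest apart between the divisions.

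The named genes whose levels followed each gene most closely over the 28 piglets, by the same centred Pearson r among 2274 genes, differed from gene to gene. AEBP1 went with C3H2orf40 (0.75), with KERA and FMOD (0.66 and 0.64), small proteoglycans of collagen fibrils, with the fibril-associated collagen COL12A1 (0.64) and with ANTXR1 (0.63), a collagen-binding receptor. MFAP5 went with COL12A1 (0.79) and COL14A1 (0.77), both fibril-associated collagens, with the calcium-binding protein S100A6 (0.77), with FNDC1 (0.77) and with the matrix protein TNXB (0.74).

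SFRP2 went with VCAN, a large matrix proteoglycan (0.84), and with FKBP10, a chaperone of procollagen (0.79), as well as with DYNLL2, NMNAT1 and CLCN5 (0.77 to 0.79). THY1 went with SELENON (0.86), with SERPINH1, the collagen chaperone (0.83), and with RSU1, FSCN1 and TAF10 (0.80 to 0.81). FBN2 went with CKAP4 (0.85), IGFBP6 (0.83), NUCB2 (0.81) and LMNA (0.80). Matrix genes or collagen chaperones were thus among the closest 5 of AEBP1, MFAP5, SFRP2 and THY1. Only COL12A1 was shared by the closest 5 of a pair of genes, AEBP1 and MFAP5.

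Other genes listed for the microfibril and elastic fibre system had the same direction as FBN2 and MFAP5 in their means over all piglets. Of 32 listed genes 11 were measured, and all 9 besides FBN2 and MFAP5 had a higher mean in DU×IB, with a median difference of 0.44 on the log2 scale against 0.02 over all probe sets. Of the 9, LOXL1 (1.09 ± 0.30, SE, adjusted p = 0.0924) and LOX (0.89 ± 0.24, adjusted p = 0.0924), enzymes that cross-link elastin and collagen, and MFAP4 (0.82 ± 0.23, adjusted p = 0.0961), a microfibril-associated glycoprotein, rose in DU×IB by limma. EMILIN3 joined them with the division as a block (0.56, limma, adjusted p = 0.0329), and these 4 genes are in the study's list. FBN1, the main fibrillin, had a difference of 0.32 ± 0.19 (limma, adjusted p = 0.724), and MFAP1, EFEMP2 and TGFB1 had differences of 0.04 to 0.10. Within the divisions these small differences changed sign, to −0.06 for EFEMP2 and −0.15 for TGFB1 in the larger and −0.06 for MFAP1 in the smaller. TGFB1 was also at a low level (mean 3.31 in DU×IB and 3.27 in IB). Whether each listed gene, MFAP1 among them, acts in microfibrils was not tested.

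For SFRP2, the related list held antagonists and receptors of the Wnt pathway, with 11 of 49 genes measured. Of the 10 besides SFRP2, the mean was higher in DU×IB for 7 and lower for 3, with a median difference of 0.20. DKK3, a secreted protein of the Dickkopf family, rose in DU×IB (1.03 ± 0.24, SE, log2 scale, limma, adjusted p = 0.032). CTNNBIP1, an inhibitor of β-catenin (0.85), and DACT1, an intracellular regulator of Wnt signalling (0.38), rose with the block (limma, adjusted p = 0.0341 and 0.0927). DKK3, CTNNBIP1 and DACT1 are in the study's list, so their calls are not independent evidence. SFRP1, the nearest relative of SFRP2 in the table, had a difference of 0.09 ± 0.21 (limma, adjusted p = 0.998). The Wnt receptors FZD4, FZD5 and FZD6 had differences of −0.17, −0.34 and 0.02, and none passed.

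Further markers of fibroblasts and fibro-adipogenic progenitors did not move as 1 group with AEBP1, SFRP2 and THY1. Of 46 listed genes 16 were measured, and of the 13 others the mean was higher in DU×IB for 8 and lower for 5 (median difference 0.28), with 0 passing in limma without a block. With the block, COL1A1, a chain of type I collagen (1.21 on the log2 scale, adjusted p = 0.027), and S100A6 (0.83, adjusted p = 0.0832) rose in DU×IB and MRC2, an endocytic collagen receptor, fell (−0.92, adjusted p = 0.0475, all limma). MRC2 was at a low level, with a mean of 3.16 in DU×IB and 4.08 in IB, below the median of every array. COL1A1, S100A6 and MRC2 are in the study's list, so their calls are not independent evidence. CDH11, ANTXR1 and SMOC2, also in the study's list, had differences of 0.43 ± 0.18, 0.39 ± 0.16 and −0.46 ± 0.19, none passing in either fit. Their centred r with FBN2 was 0.65, 0.73 and −0.08. DPP4, a marker of progenitors around vessels, had a difference of 0.34 ± 0.22, and the chemokine genes CXCL12 and CXCL14 had differences of −0.55 and −0.28, none passing.

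**Figure D5:**
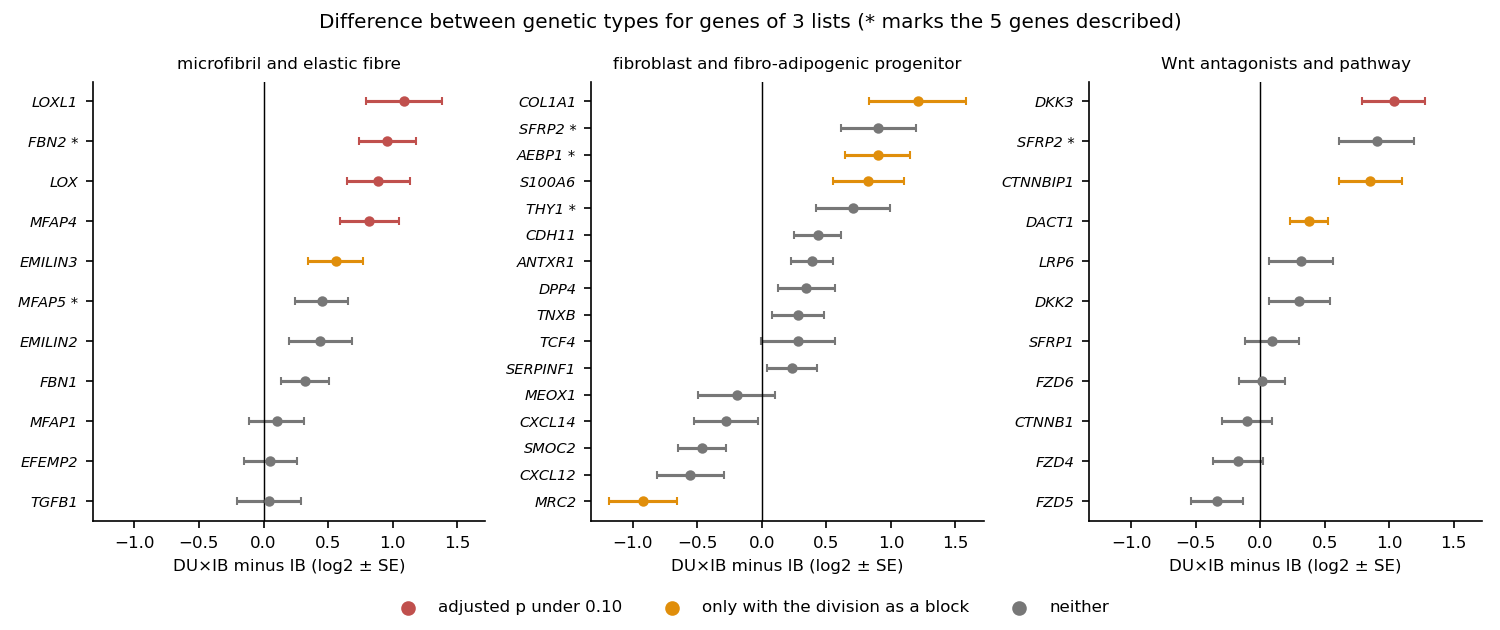
Difference in level between DU×IB and IB (log2 ± SE, horizontal axis, 14 piglets each) for the measured genes of 3 lists, with the genes described here marked by a star. Colours show whether a gene had an adjusted p under 0.10 in limma without a covariate, only with the division as a block, or in neither. All 11 genes of the microfibril list lie right of 0, while 5 of 16 genes of the fibroblast list lie left of it.

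AEBP1 belongs by sequence to the metallocarboxypeptidases, and of the 17 listed only CPD and CPM were measured besides it, with differences of −0.02 and 0.09. Of 17 listed integrins and other binding partners of THY1, ITGAV (0.33 ± 0.21) and ITGB1 (0.20 ± 0.25) were measured, and neither passed (limma). Among 12 of 29 listed preadipocyte and adipocyte genes, the mean was higher in DU×IB for 4 and lower for 8, and only RBP7, a retinol-binding protein, rose (1.58 ± 0.37, SE, log2 scale, limma, adjusted p = 0.0309). RBP7 is in the study's list. Its level was low, with a mean of 4.45 in DU×IB and 2.87 in IB, below the median of every array. FABP4, the fatty acid carrier of fat cells, had a difference of 0.37 ± 0.23 (limma, adjusted p = 0.801). Among the lower genes, CFD and PNPLA2 had differences of −0.44 ± 0.21 and −0.43 ± 0.21, and neither passed (limma, adjusted p = 0.568 and 0.590).

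Markers of other cell types moved beside these genes in part. Of 15 tendon and cartilage genes 5 were measured, 4 with a higher mean in DU×IB, and KERA (1.93), FMOD (1.93) and COL12A1 (1.52) passed without the block and THBS4 (0.65) with it (limma, adjusted p = 0.00529, 0.00858, 0.0432 and 0.0887). Their mean level per piglet ran from 8.84 to 11.0 in DU×IB and from 7.34 to 10.2 in IB. KERA, FMOD and COL12A1 followed FBN2 over the 28 piglets with a centred r of 0.76, 0.78 and 0.78, and AEBP1 with 0.66, 0.64 and 0.64, and the part of these markers in the differences of the 5 genes was not tested. KERA, FMOD, COL12A1 and THBS4 are in the study's list, so their calls on these arrays are not independent evidence.

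Of 16 macrophage and monocyte genes 8 were measured, all with a lower mean level in DU×IB (median difference −0.42), with 0 passing in either fit, and their mean level per piglet ran from 5.25 to 5.91 in DU×IB and from 5.45 to 7.93 in IB. Their centred r with FBN2 was negative for 7 of the 8, down to −0.67 for C1QC, −0.65 for FCER1G and −0.62 for C1QA, which encode complement and Fc receptor chains. With AEBP1 the same genes had a centred r of −0.18, −0.10 and −0.11, and over the 8 it ran from −0.30 (AIF1) to 0.21 (MRC1). Pericyte and smooth muscle genes (5 of 13 measured, 4 with a higher mean in DU×IB) ran from 8.62 to 9.78 in DU×IB and from 7.74 to 9.63 in IB, and endothelial genes (6 of 15 measured, 4 with a higher mean in DU×IB) from 7.02 to 8.50 in DU×IB and from 7.07 to 9.14 in IB, with none passing in either list. Their part was not tested either. THY1 also marks T cells in mice, and 0 of 11 T cell genes were measured in this table. Of 31 muscle fibre genes, which fit the labelled tissue, 6 were measured, and their mean level per piglet ran from 10.8 to 11.4 in DU×IB and from 10.3 to 11.4 in IB, with a median difference of 0.01.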

How the data were processed

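The authors read the scans with GCOS and deposited log2 values from GCRMA, run in BRB-ArrayTools, a method that corrects background by probe sequence, normalizes by quantiles and gives 1 value to each probe set. The 5226 probe sets given are those left by the study's variation filter (over 20% of arrays 1.5-fold or more away from the median), including 53 control probe sets, with values from 1.44 to 15.7. A gene that the filter removed is not analysed here. No column was left out. Precision is limited by the number of arrays.

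FBN2 and SFRP2 were named from the study's list, AEBP1 from that list and the array annotation, and THY1 and MFAP5 from the annotation alone. In all, 572 probe sets were named from the study's tables and 2073 from the annotation, where some symbols are old, and 2581 have no name here. The genes and the lists were chosen with earlier results of these data known. Named genes are the 5 genes, the listed genes that passed in either fit or else up to 4 of lowest p, and the 5 genes of highest r with each, of which 1 is not reported here. Other listed genes that the text names were added after their values were seen.

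Genetic types were compared with limma 3.58.1 (lmFit and eBayes, DU×IB minus IB, two-sided, R 4.3.3), Benjamini-Hochberg over all probe sets, threshold 0.10. The study's model held a term for hybridization series, which the labels do not name, so the spike-in division was the block in a further fit. Permutation tests used numpy 2.4.6 (100000 resamples, and 10000 for differences in r). Both were tested on simulated data. Alternatives were each division alone, the replicate number as a block, array median centring, quantile normalization, dim or control probe sets left out, array weights, a trended robust prior and each piglet left out. No gene had another probe set to try.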

Additional observations from a re-analysis of the deposited data

How the results depend on the processing

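All 5 differences stayed positive in every alternative run, and no difference between genetic types was reversed. The whole table gave 52 called probe sets without a covariate, 145 with the division as a block, 145 with the replicate number as a block, 96 with array weights, 122 with array median centring and the division, 276 with array weights and the division, 9 in the larger and 229 in the smaller division. Of the 5 genes 1 was called without a covariate, 2 with the division, 4 with the replicate block, 2 with array weights, 2 with centring and the division, 4 with array weights and the division, 0 in the larger and 3 in the smaller division. Leaving out 1 piglet gave 34 to 66 called probe sets and 1 to 2 called genes without the block, and 103 to 221 probe sets and 1 to 4 genes with it. The fits that combine settings and those that leave out a piglet beside the block were added after seeing the data.

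AEBP1 passed with the division (0.90), the replicate block (0.90, limma adjusted p = 0.0285), array weights (0.93), centring with the division (0.87) and weights with the division (0.80). SFRP2 passed in the smaller division (1.00), with the replicate block (0.90, adjusted p = 0.0622) and with weights and the division (0.65), THY1 in the smaller division (1.14), with the replicate block (0.71, adjusted p = 0.0622) and with weights and the division (0.64). FBN2 lost its call in the larger division (0.70, adjusted p = 0.759) and kept it in the other 11 of 12 settings. MFAP5 passed in none of these. Without 1 piglet the difference ran from 0.79 to 1.00 for AEBP1, 0.74 to 1.05 for SFRP2, 0.58 to 0.84 for THY1, 0.86 to 1.03 for FBN2 and 0.33 to 0.51 for MFAP5, and with the block from 0.78 to 1.00, 0.73 to 1.05, 0.63 to 0.80, 0.85 to 1.03 and 0.33 to 0.52 in the same order. With the block, SFRP2 passed in 4 and THY1 in 7 of the 28 cases. The cause was not tested.

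The replicate numbers run from 1 to 14 in both genetic types, but the numbers do not pair the piglets. Same-numbered piglets correlated over 0.1 in 12 of 14 pairs (0.02 to 0.73) and, within the divisions, which the numbers follow, in 2 of 14 (−0.33 to 0.54), and 2 of 14 DU×IB piglets correlated best with their own number.

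Of the 10 correlations 6 passed, 3 without the 2 farthest piglets, 0 in the larger and 7 in the smaller division, and 3 to 7 without 1 piglet. By Spearman rho 7 passed over all piglets and 2 in the larger division. THY1 with MFAP5 was reversed in the larger division (−0.11).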
